A study of Mus musculus with 12 samples.

Results

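Red cell regulators, a heme synthesis enzyme and globins were measured in sorted cells of the mouse fetal liver as 9 genes chosen by name, and all 9 were found in both count tables, which list 32285 and 56980 gene identifiers. They are the transcription factors Gata1 and Klf1, the erythropoietin receptor gene Epor, the heme synthesis enzyme gene Alas2, the adult alpha-globin genes Hba-a1 and Hba-a2, the adult beta-globin genes Hbb-bt and Hbb-bs, and the embryonic beta-like globin gene Hbb-y. The 12 libraries came from E14.5 embryos that all carried floxed Jag1 alleles (Jag1 f/f, written f/f where both copies are floxed), with or without Vav-Cre, a transgene that drives Cre recombinase from the Vav promoter in blood cells. Of the libraries, 6 were from hematopoietic stem cells (HSCs) of C57BL/6 embryos, 3 Jag1 f/f without Cre (given as WT in the labels) and 3 Jag1 f/f with Vav-Cre, sorted as DAPI-CD45+Lin-cKit+Sca1+CD48-CD150+ cells, 2000 per library. The other 6 were from CD169+ macrophages, 3 Jag1 f/f without Cre and 3 with Vav-Cre, 1000 to 3000 cells per library, for which the labels give no strain. Whether each library had an embryo of its own is not stated, so p-values measure the spread between libraries, which may be technical.

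Red cell precursors switch on GATA1 and KLF1, which bind GATA and CACCC sequence elements at globin, heme synthesis and red cell membrane genes. Erythropoietin, bound by the receptor that Epor encodes, keeps these precursors alive, and ALAS2 carries out the first and rate-limiting step of heme synthesis in them. Primitive red cells of the yolk sac make the embryonic globins (Hbb-y and Hbb-bh1 on the beta side, Hba-x on the alpha side), whereas definitive red cells of the fetal liver make the adult ones. In the fetal liver, red cell precursors mature around CD169+ macrophages in erythroblastic islands, and the macrophages engulf the nuclei they expel.

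The 9 genes lie at 6 loci of GRCm38. Gata1 spans chrX:7959260-7978071 and Alas2 chrX:150547375-150570638. Klf1 lies at chr8:84901928-84905291 and Epor at chr9:21958897-21963506. The adult alpha genes are neighbours, Hba-a1 at chr11:32283511-32284465 and Hba-a2 at chr11:32296489-32297298. The beta-like genes stand in 1 cluster on the minus strand, Hbb-bt at chr7:103812524-103813996, Hbb-bs at chr7:103826534-103828096 and Hbb-y at chr7:103851749-103853216. The coding sequences of Hba-a1 and Hba-a2 differ at 1 of 429 bases, and those of Hbb-bt and Hbb-bs at 1 of 444 bases. How the authors' counting split reads between such copies is not given in the sources used here, so the level of each copy is uncertain and the sum of a pair is firmer. Hbb-y differs from Hbb-bt at 115 and from Hbb-bs at 114 coding bases. Alas2 overlaps Apex2 and Mir3620 on the opposite strand, and reads from these genes cannot be told apart without strand.

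The promoters of an adult alpha gene, an adult beta gene, the embryonic beta-like gene and Epor are shown because the comparisons below set these genes against each other. Each is the 250 bases before the RefSeq start (GRCm38.p6), on the gene's own strand, with 3 kinds of element on either strand in capitals. The CACCC box and the CCAAT box are spelled by their names. The GATA element was searched as GATA after A or T and before A or G. They lie at chr11:32296242-32296491 (plus strand), chr7:103827929-103828178, chr7:103853208-103853457 and chr9:21963577-21963826 (minus strand), and the annotated starts of the counted genes can differ from the RefSeq starts.
Hba-a2: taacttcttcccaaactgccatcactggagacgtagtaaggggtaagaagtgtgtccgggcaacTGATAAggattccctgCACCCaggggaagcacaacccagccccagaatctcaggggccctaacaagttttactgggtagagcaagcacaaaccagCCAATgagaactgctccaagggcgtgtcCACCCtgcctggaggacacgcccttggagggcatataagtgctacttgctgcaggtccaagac
Hbb-bs: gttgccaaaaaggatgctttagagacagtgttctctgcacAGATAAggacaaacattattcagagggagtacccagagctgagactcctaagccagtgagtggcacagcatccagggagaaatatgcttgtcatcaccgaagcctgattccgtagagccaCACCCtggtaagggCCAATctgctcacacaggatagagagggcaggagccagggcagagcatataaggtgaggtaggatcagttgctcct
Hbb-y: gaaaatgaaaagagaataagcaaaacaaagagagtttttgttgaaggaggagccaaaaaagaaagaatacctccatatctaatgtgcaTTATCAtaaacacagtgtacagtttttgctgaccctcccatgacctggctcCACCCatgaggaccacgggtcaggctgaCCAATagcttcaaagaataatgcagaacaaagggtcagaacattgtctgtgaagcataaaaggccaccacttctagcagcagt
Epor: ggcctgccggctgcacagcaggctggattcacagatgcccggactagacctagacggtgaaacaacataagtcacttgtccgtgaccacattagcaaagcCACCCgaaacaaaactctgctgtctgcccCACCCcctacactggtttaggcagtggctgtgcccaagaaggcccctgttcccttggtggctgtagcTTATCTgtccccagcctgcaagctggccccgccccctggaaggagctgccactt
CACCC was found in the windows of 9 of 9 genes, against 51.3% of 27025 promoter windows. A GATA element was found in 7 of 9 windows, against 27.1% of all windows, and was not found in those of Gata1 and Hbb-bt. CCAAT was found in 6 of 9 windows, against 34.5% of all windows, the 6 being the 5 globin genes and Klf1. In the adult Hbb-bs promoter the CACCC element began at position -90 from the RefSeq start and CCAAT at -76. In the embryonic Hbb-y promoter they began at -111 and -83. A match is a description of the letters and not of binding.

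Counted reads numbered 51982064 to 77463770 per HSC library. The macrophage libraries were shallower, with 17230019 to 24658205 reads without Cre and 2602934 to 5366990 with Cre. Levels below are in CPM, the read count scaled to a common library size after TMM scaling of the library totals, and 3 reads corresponded to 0.0386 to 0.0561 CPM in HSCs, 0.138 to 0.174 in Cre negative macrophages and 0.522 to 1.08 in Cre positive macrophages. The targeted gene Jag1 did not separate the HSC groups, at 6.53, 6.87 and 1.16 CPM without Cre against 10.5, 0 and 19.5 CPM under the label Cre positive, so the HSC groups are given here by their labels. In macrophages Jag1 was at 52.6, 21.1 and 26.3 CPM without Cre and at 0, 10.6 and 6.79 CPM with it. Cre negative macrophage replicate 1 stood apart from replicates 2 and 3, with Adgre1, which encodes the macrophage antigen F4/80, at 22.3 against 403 and 375 CPM and the hepatocyte gene Alb at 1707 against 92.1 and 77.1 CPM. The CD169 gene Siglec1 was at 16.2 to 117 CPM in the macrophage libraries, and 0 of 12 HSC markers were without reads in any HSC library. HSC markers summed to 0.0826 to 0.222% of reads in HSC libraries and to 0.0495 to 0.111% in macrophage libraries, an overlap. Macrophage markers summed to 0.201 to 0.338% in HSC libraries and to 0.0768 to 0.495% in macrophage libraries. Endothelial markers summed to 0.597 to 1.22% in HSC and 0.869 to 1.77% in macrophage libraries. Stab2, a marker of liver sinusoidal endothelium, was at 567 to 1570 CPM in HSC and 2455 to 5121 CPM in macrophage libraries.

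Red cell marker genes were read in both sorts. The 19 of 20 listed markers that were in the tables (Slc4a1, Sptb, Rhag and others) summed to 0.0808 to 0.114% of reads in Cre negative HSC libraries and to 0.0915 to 0.128% with the Cre positive label. In macrophages the sum was 0.0161 to 0.0370% without Cre and 0.0235 to 0.0426% with Cre, so the groups overlapped in both sorts. In Cre negative macrophage libraries 3, 0 and 1 of the 19 markers were at 0, and in Cre positive libraries 11, 7 and 7 were, with Rhag, Trim58 and Tmod1 at 0 in all 3. The Cre positive macrophage libraries were also the shallower ones. Of the 15 markers tested in macrophages, 11 had a log2 fold change below 0 and 4 above, with a median of -0.75, and 4 were wholly lower with Cre and 0 wholly higher, with 0 called by edgeR or DESeq2 and 2 at unadjusted p under 0.05. Over all genes tested there, 11.8% were wholly lower, 2.27% wholly higher and 5.42% at unadjusted p under 0.05 (edgeR). Genes were tested after a filter on low counts, which a gene passes through the group where it is high. The part of red cell precursors or their RNA in the results below was not tested, and in bulk samples fewer cells of a type and less RNA per cell cannot be told apart.

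**Figure D1:**
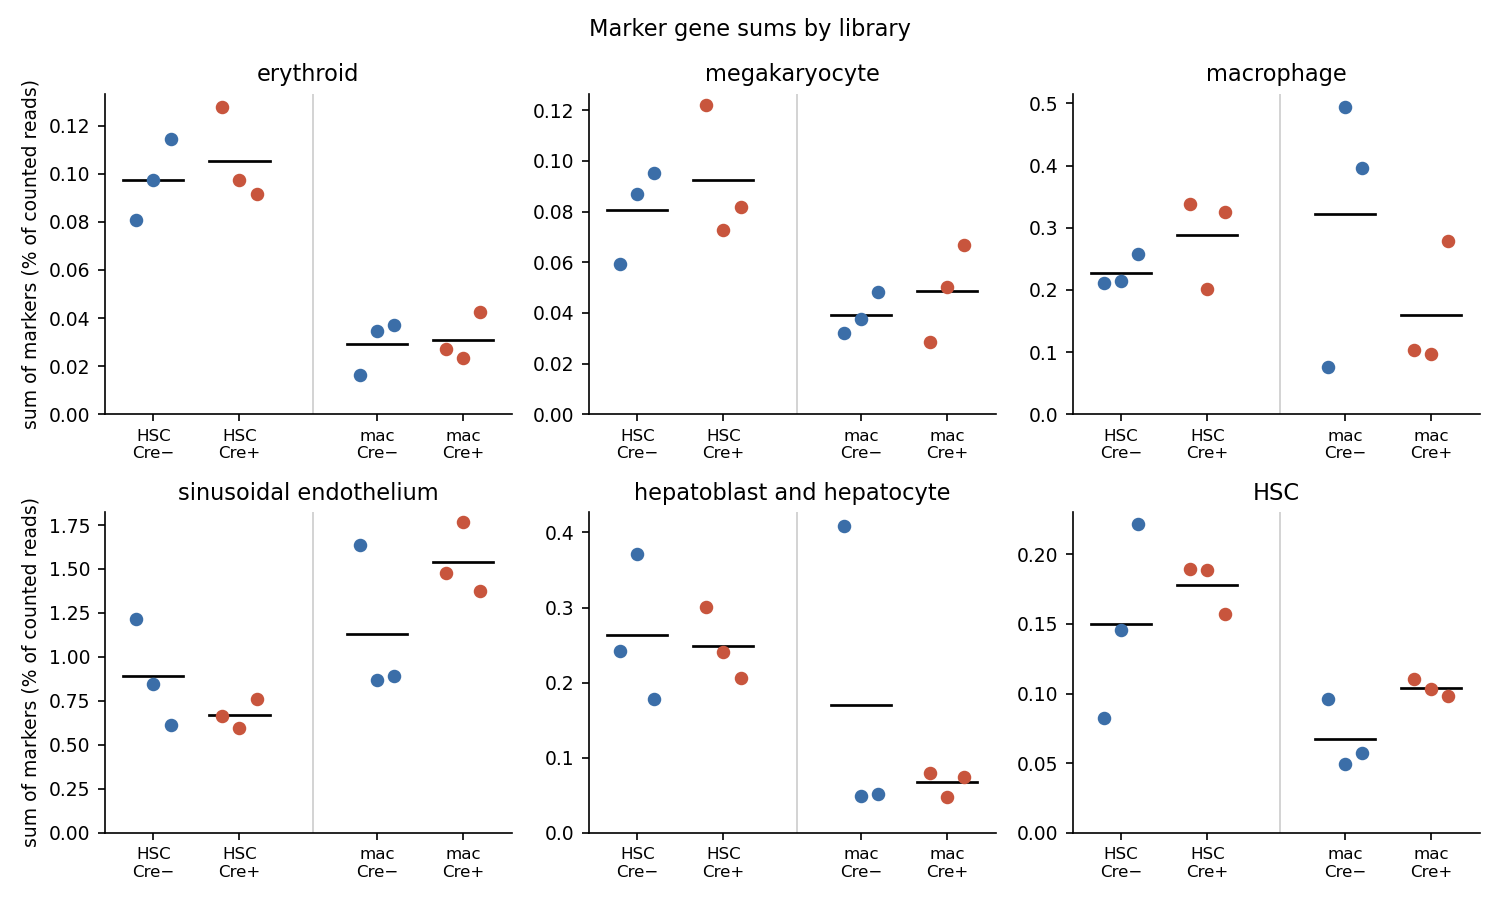
Sum of the reads of each marker list as a percentage of counted reads, 1 point per library in replicate order within each group, with black lines at group means. The red cell marker sum lies between 0.0161% and 0.0426% in all 6 macrophage libraries and between 0.0808% and 0.128% in all 6 HSC libraries. Most of the HSC sum is Car2, at 621 to 878 CPM in HSC and 0 to 34.2 CPM in macrophage libraries.

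Cre negative HSCs held reads of every gene of the set, with adult globins far above the rest. Levels between genes are compared per kilobase of the longest coding transcript. Mean levels in CPM per kb were 555 ± 257 for Hbb-bs, 430 ± 181 for Hba-a1, 410.0 ± 133 for Hbb-bt and 333 ± 155 for Hba-a2 (SD, n = 3), and the ranges of neighbours in this order overlapped. Epor followed at 52 ± 0.811, then Hbb-y at 37.5 ± 21.0, Klf1 at 30.3 ± 3.18, Alas2 at 14.8 ± 5.62 and Gata1 at 9.14 ± 4.90 CPM per kb. The range of Epor lay wholly below that of Hba-a2 and overlapped that of Hbb-y, the ranges of Hbb-y and Klf1 overlapped, and Klf1 lay wholly above Alas2. In HSC libraries labelled Cre positive the order began with Hbb-bs at 736 ± 70.2 CPM per kb, wholly above Hbb-bt at 564 ± 55.1, and ended with Alas2, Klf1 and Gata1, whose ranges overlapped.

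In Cre negative macrophages the order differed. Hbb-y, the embryonic gene, had the highest mean at 52 ± 47.4 CPM per kb, followed by Hba-a1 at 38.2 ± 35, Hba-a2 at 22.7 ± 16.4 and Hbb-bt at 22.7 ± 17.3. Alas2 was at 12.7 ± 8.08, Hbb-bs at 8.88 ± 8.40, Epor at 4.37 ± 2.99, Klf1 at 4.23 ± 3.69 and Gata1 at 0.762 ± 0.831 CPM per kb. The SDs were close to the means, and every neighbour in this order overlapped the next. In Cre positive macrophages Hbb-bs had the highest mean, 30.9 ± 53.6 CPM per kb, all of it from 1 library, while Epor and Klf1 were at 0.

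**Figure D2:**
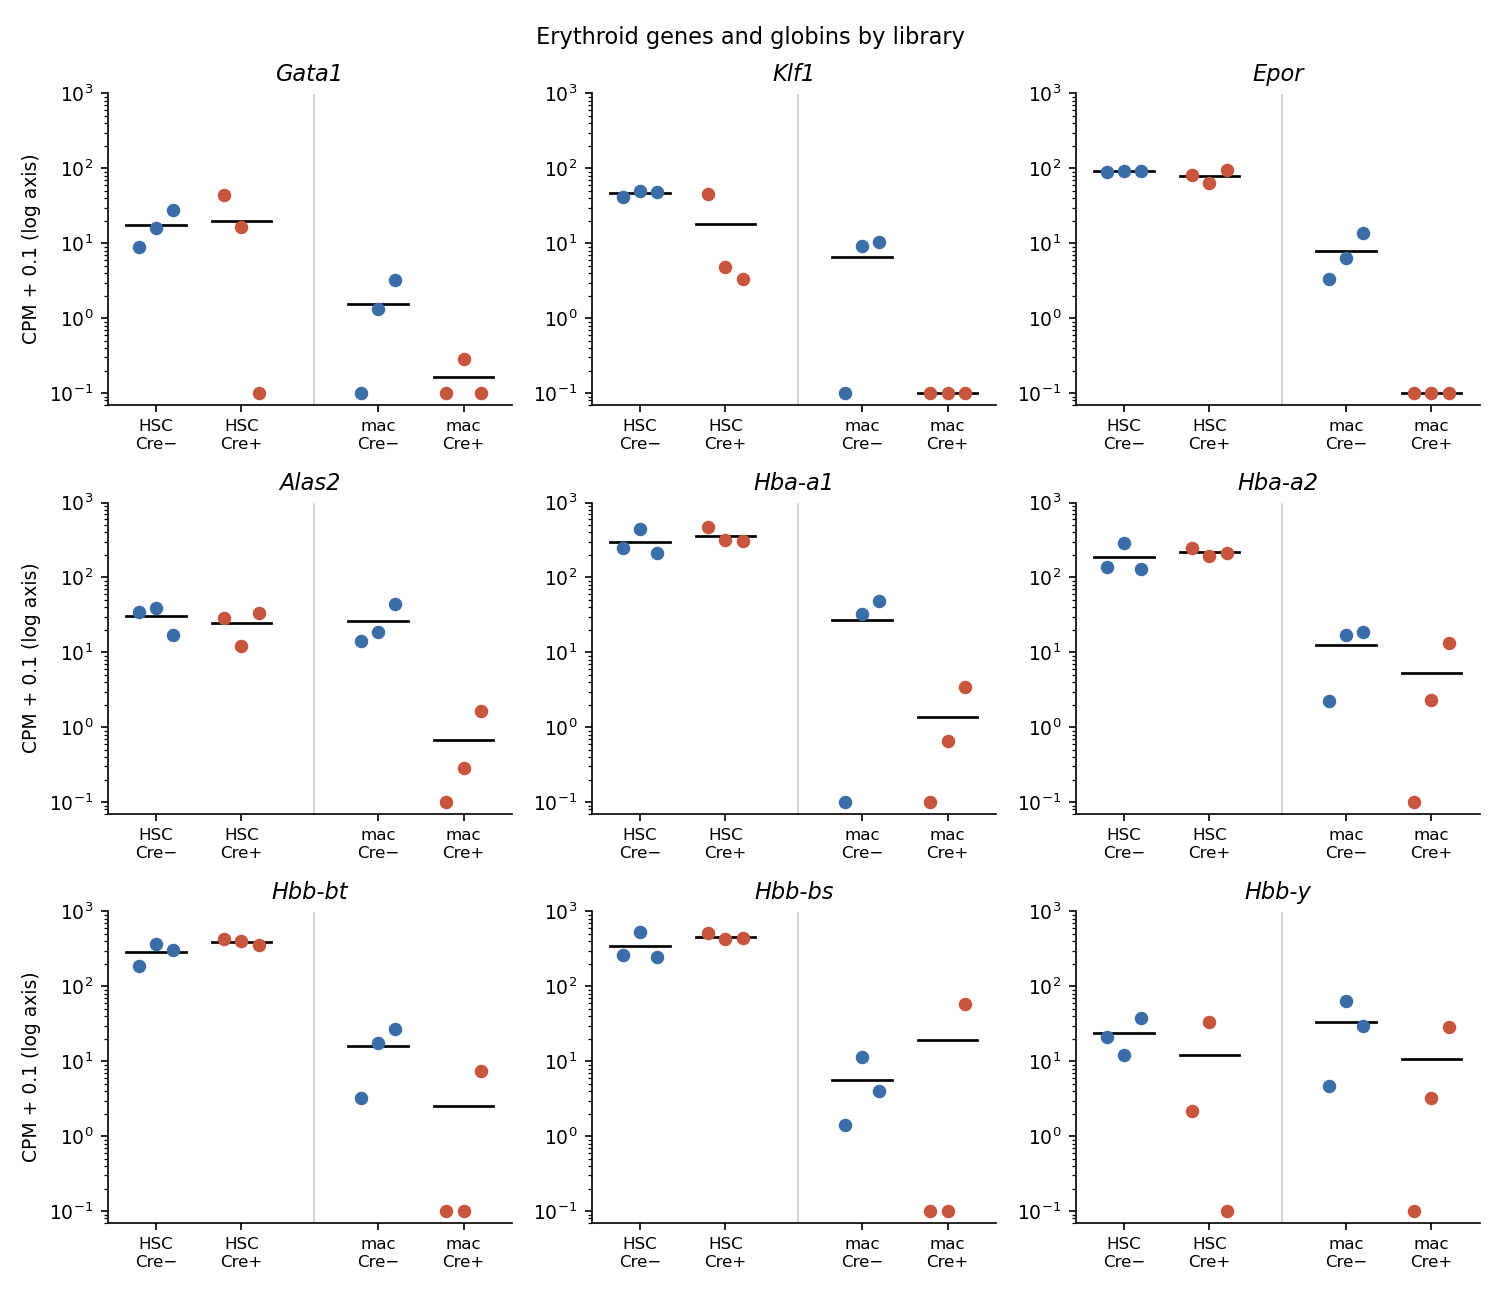
Level of each gene in each library as CPM + 0.1 on a log axis, 1 point per library in replicate order, with black lines at group means; points at the bottom are libraries with 0 reads. In HSCs the groups overlap for all 9 genes, and in macrophages Epor and Alas2 are the genes whose Cre positive libraries all lie below the Cre negative ones.

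In HSCs, Vav-Cre positive and negative libraries were compared to ask whether the genes of red cell formation differed with Vav-Cre on the floxed Jag1 background. All 9 genes passed the filter on low counts, and 0 of 9 passed an adjusted p of 0.05 in edgeR's quasi-likelihood test, against 0% of 13962 genes tested. By unadjusted p under 0.05 the count was 0 of 9, against 6.39% of all genes. DESeq2 called 0.953% of all 13962 genes, a share that counts genes without an adjusted p. Of the 9 it called 0 of the 8 genes to which it gave an adjusted p. Klf1, the gene with the largest fold change, got none. The groups overlapped for every gene, whereas 6.37% of all genes were wholly higher and 9.33% wholly lower in the libraries labelled Cre positive, that is with all 3 of them above or below all 3 Cre negative ones. The median log2 fold change of the 9 genes was 0.21, with 5 above and 4 below 0, and that of all genes was -0.00.

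Of the regulators, Klf1, which activates the adult beta-globin genes, was at 41.0, 50.5 and 47.6 CPM in Cre negative HSCs against 45.2, 4.81 and 3.22 CPM in the group labelled Cre positive. Replicates 2 and 3 of the latter were below all 3 Cre negative libraries, and replicate 1 was within their range. The log2 fold change was -1.39 (SE 0.94, edgeR adjusted p = 0.902), and it was -3.53 without replicate 1 of the group labelled Cre positive (adjusted p = 0.301). Gata1, the master factor of the red cell and megakaryocyte lineages, was at 8.90, 15.9 and 27.3 CPM in Cre negative HSCs against 43.6, 16.6 and 0 CPM in the group labelled Cre positive. The last group held both the highest library and the 1 library with no Gata1 read, and the log2 fold change was 0.21 (SE 1.71, edgeR adjusted p = 0.996).

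Epor was the steadiest gene of the set in HSCs. It was at 90.6, 93.2 and 90.9 CPM in the Cre negative libraries against 80.9, 64.1 and 94.3 CPM in the group labelled Cre positive. The groups overlapped, with a log2 fold change of -0.20 (SE 0.25, edgeR adjusted p = 0.992). Alas2 was at 34.3, 38.8 and 17.1 CPM without Cre against 28.5, 12.1 and 33.4 CPM in the group labelled Cre positive, again overlapping, with a log2 fold change of -0.29 (SE 0.55, edgeR adjusted p = 0.996).

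The adult globins did not separate the HSC groups. Hba-a1 was at 247, 445 and 209 CPM in Cre negative libraries against 464, 312 and 308 CPM in the group labelled Cre positive. Hbb-bs was at 264, 535 and 247 CPM and at 513, 430.1 and 444 CPM, respectively. For both genes Cre negative replicate 2 and all 3 libraries labelled Cre positive lay above Cre negative replicates 1 and 3. Hba-a2 ranged from 131 to 284 CPM and Hbb-bt from 187 to 431 CPM over the 6 libraries, with overlapping groups. The sum of the 4 adult globins was 838, 1634 and 895 CPM without Cre against 1657, 1340 and 1319 CPM in the group labelled Cre positive, an overlap (two-sided exact permutation p = 0.3, n = 3 and 3, smallest possible p 0.1). The log2 fold changes of the 4 genes lay between 0.24 and 0.46, with edgeR adjusted p-values of 0.867 to 0.996. The 5 globin genes took 0.0791 to 0.171% of HSC reads.

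The embryonic globin Hbb-y varied more than the adult ones. It was at 21.0, 12 and 38.2 CPM in Cre negative HSCs against 2.04, 33.9 and 0 CPM in the group labelled Cre positive (log2 fold change -0.99, SE 1.82, edgeR adjusted p = 0.996; -4.54 without replicate 2 of the latter group). Replicates 1 and 3 of the latter were below every Cre negative library, and replicate 2 was within their range. Hba-x, the embryonic alpha-like globin, followed the same libraries, at 8.69, 11.7 and 14.46 CPM without Cre against 2.45, 22.8 and 0 CPM in the group labelled Cre positive. The 0 of Hbb-y in replicate 3 stood beside 58559 reads of the adult beta genes, which allows an embryonic share of up to 0.00512% of beta-like reads, counting error only. That library had the fewest genes with reads of the HSC libraries, 12747 against 13645 to 16021, and no read of Gata1 either.

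Embryonic and adult globins were set against each other within each library as the share of Hbb-y in beta-like globin per kilobase, which does not depend on scaling between libraries. The share was 4.61, 1.35 and 6.77% in Cre negative HSCs against 0.225, 4.07 and 0% in the group labelled Cre positive. The means were 4.24% ± 2.73 and 1.43% ± 2.29 (SD, n = 3 each), and the groups overlapped (difference -2.81 percentage points, two-sided exact permutation p = 0.2, smallest possible p 0.1). The reads behind these shares numbered 25333 to 71255 beta-like reads per library. Hba-x made up 1.76, 1.25 and 3.26% of alpha-like globin per kilobase without Cre and 0.274, 3.45 and 0% in libraries labelled Cre positive (two-sided exact permutation p = 0.6, n = 3 and 3). Adult alpha to adult beta globin stood at a ratio of 0.631 to 0.881 per kilobase over the 6 HSC libraries.

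In macrophages the embryonic gene held a far larger share of few globin reads. Hbb-y was 52.4, 70.2 and 51.1% of beta-like globin per kilobase in Cre negative macrophages, from 156, 1998 and 1322 beta-like reads. In Cre positive macrophages replicate 1 had 0 beta-like reads and so no share. Replicate 2 had 17 reads, all 17 of them Hbb-y (share of reads 100%, exact Clopper-Pearson 95% interval 80.5 to 100%). Replicate 3 had 544 reads and a share of 30.8%. The Cre groups overlapped, at means of 57.9% ± 10.7 (SD, n = 3) and 65.4% ± 48.9 (SD, n = 2), with a difference of 7.49 percentage points (two-sided exact permutation p = 0.8, smallest possible p 0.2). Without Cre positive replicate 2 the difference was -27.1 points and without replicate 3 it was 42.1 points, each with 1 Cre positive library left and no test.

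The 6 HSC shares of 0 to 6.77% lay wholly below the 5 macrophage shares of 30.8 to 100%. The 2 tables were counted separately, and this contrast between the sorts was not tested. Hba-x took 13.0, 39.0 and 20.6% of alpha-like globin per kilobase in Cre negative macrophages and 66.4 and 76.0% in the Cre positive libraries with alpha-like reads, replicates 2 and 3. These groups did not overlap (difference 46.9 percentage points, two-sided exact permutation p = 0.2, n = 3 and 2, the smallest p possible), and 41 and 421 reads of Hba-x stood behind the Cre positive values. Hbb-bh1, another embryonic beta-like gene, was at 0 to 2.21 CPM in macrophages and at 0 to 0.727 CPM in HSCs. The 5 globin genes took 0 to 0.0124% of macrophage reads.

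**Figure D3:**
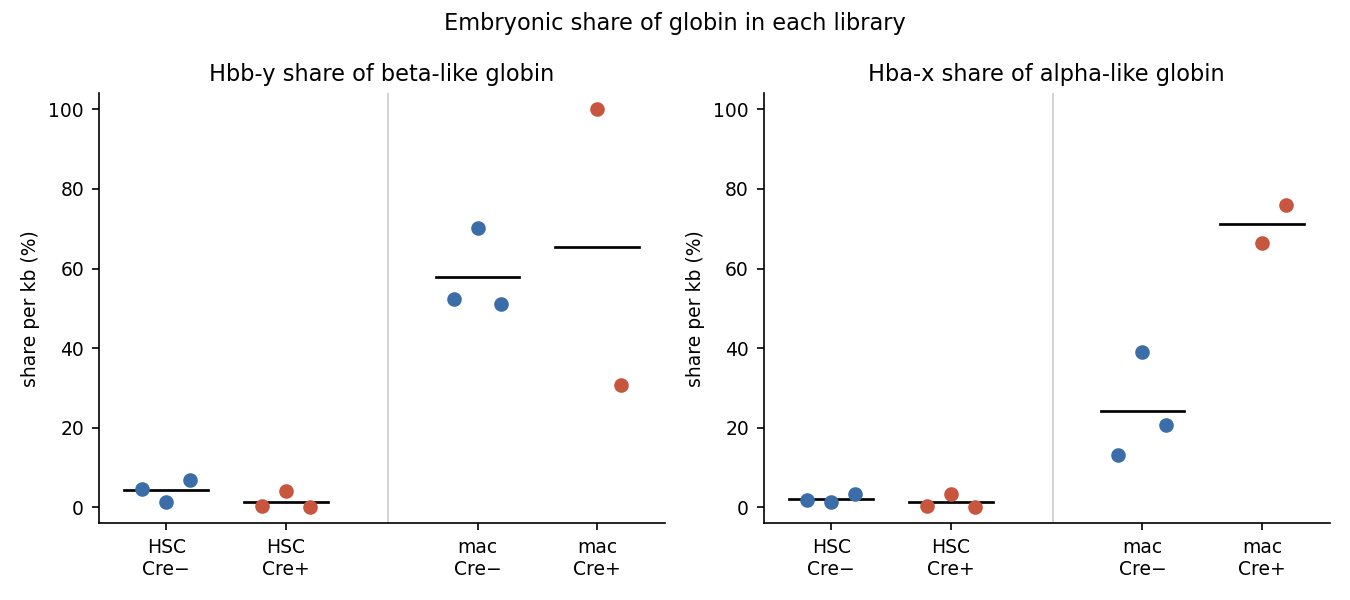
Share of Hbb-y in beta-like globin (left) and of Hba-x in alpha-like globin (right) per kilobase in each library, in percent, 1 point per library, with black lines at group means; Cre positive macrophage replicate 1 had no globin reads and has no point. The HSC shares of Hbb-y lie between 0 and 6.77% and the macrophage shares between 30.8 and 100%.

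In macrophages, the Vav-Cre comparison found low or absent reads of several red cell genes in the Cre positive libraries. None of them passed the adjusted threshold in edgeR, and Alas2 alone passed it in DESeq2. The filter on low counts was passed by 7 of the 9 genes and not by Gata1 and Klf1. By edgeR's quasi-likelihood test 0 of 7 passed an adjusted p of 0.05, against 0% of 17806 genes tested. DESeq2 called 0.343% of all 17806 genes, a share that counts genes without an adjusted p. Of the 7 it called Alas2, 1 of the 5 genes to which it gave an adjusted p. Epor (DESeq2 unadjusted p = 0.00412) and Hbb-bs got none. By unadjusted p under 0.05 the count was 2 of 7, Epor and Alas2, against 5.42% of all genes. The same 2 genes were wholly lower in Cre positive libraries, as were 11.8% of all genes, and 0 of 7 were wholly higher, against 2.27%. Epor had 0 reads and Alas2 0, 1 and 9 reads in Cre positive libraries, so both passed the filter through the Cre negative group. The filter thus favoured a lower level with Cre in these counts and in the p-values of both genes below. The median log2 fold change of the 7 genes was -2.69, with 6 below and 1 above 0, but a gene passes the filter through the group where it is high. Over all genes the median was -0.16 under TMM, -0.00 under upper-quartile scaling and 0.05 on library totals.

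Epor was at 3.24, 6.35 and 13.5 CPM in Cre negative macrophages, from 56, 136 and 293 reads. It was at 0 reads in all 3 Cre positive libraries, where 3 reads would be 1.08, 0.558 and 0.522 CPM. The groups did not overlap (edgeR unadjusted p = 0.0172, adjusted p = 0.773, and two-sided exact permutation p = 0.1, n = 3 and 3, the smallest possible). Against the mean floor of 3 reads per library Epor was at least 10.7-fold lower with Cre, a bound that covers counting error only. Without Cre negative replicate 3, the library with the most Epor reads, the bound was 6.66-fold. Alas2 was at 14.2, 18.7 and 44.7 CPM without Cre and at 0, 0.186 and 1.57 CPM with Cre, the latter from 0, 1 and 9 reads. Every Cre positive library was below every Cre negative one, with a log2 fold change of -5.38 (SE 1.90, edgeR adjusted p = 0.773; DESeq2 adjusted p = 0.049998). With counts thinned to the depth of the shallowest library, the Alas2 log2 fold change was -5.53 and Epor did not pass the filter.

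The transcription factors were scarce in macrophages. Klf1 was at 0, 9.15 and 10.3 CPM without Cre and at 0 in all 3 Cre positive libraries, at least 9.0-fold lower against the mean floor, counting error only. The groups overlapped because Cre negative replicate 1 also had 0 Klf1 reads. That library had the lowest Adgre1 and the highest Alb of the macrophage libraries, and Adgre1 was low in the Cre positive libraries too. Gata1 was at 0, 1.21 and 3.14 CPM without Cre, and the 3 Cre positive libraries together held 1 Gata1 read.

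The adult globins were low in macrophages and uneven with Cre. Hba-a1 was at 0, 32.1 and 48.0 CPM without Cre and at 0, 0.558 and 3.31 CPM with Cre (log2 fold change -4.32, SE 2.13, edgeR adjusted p = 0.981). Hbb-bt was at 3.13, 17.5 and 27.3 CPM and at 0, 0 and 7.31 CPM, respectively (log2 fold change -2.69, SE 2.18, edgeR adjusted p = 1.00; -10.77 without Cre positive replicate 3, where the other Cre positive libraries had 0 reads). Hbb-bs was at 1.33, 11.5 and 3.92 CPM without Cre and at 0, 0 and 58.3 CPM with Cre, so that the library with the most Hbb-bs and both libraries with none were Cre positive. Its log2 fold change was 1.80 and became -9.26 without Cre positive replicate 3. Hba-a2 was at 2.14, 16.9 and 18.7 CPM and at 0, 2.23 and 13.4 CPM, and Hbb-y at 4.58, 64.3 and 29.8 CPM and at 0, 3.16 and 29.1 CPM. In both genes the groups overlapped. The sum of the 4 adult globins was 6.60, 78.0 and 97.8 CPM without Cre and 0, 2.79 and 82.3 CPM with Cre (two-sided exact permutation p = 0.3, n = 3 and 3). Cre negative replicate 1 and Cre positive replicates 1 and 2 were low, and these 3 libraries also had the lowest macrophage marker sums, 0.0768, 0.103 and 0.0970% of reads against 0.279 to 0.495% in the other 3. The part of macrophage marker content in these levels was not tested.

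The difference between the sorts in the Cre effect was tested with an interaction term over 20128 genes. Epor was the 1 gene of 9 past an adjusted p of 0.05 (edgeR), against 0.0696% of all genes. Its effect in macrophages minus that in HSCs was -11.18 on the log2 scale (SE 2.01, adjusted p = 0.0376), a fitted size that depends on the prior count because Cre positive macrophages had 0 reads. Epor was at 64.1 to 94.3 CPM over the 6 HSC libraries, and in macrophages it had reads without Cre alone. The interaction fit used 1 spread estimate per gene over both sorts, so the steady HSC libraries entered the spread set against the macrophage values. The macrophage fit alone gave Epor an SE of 3.58 and an edgeR adjusted p of 0.773. The call was lost with library totals (adjusted p = 0.0521) and without any of HSC Cre negative replicates 1, 2 or 3 (0.0986, 0.104 and 0.0852), HSC replicate 3 labelled Cre positive (0.0790) or macrophage Cre negative replicate 3 (0.0602). The other 8 genes had edgeR adjusted p-values of 0.488 to 1.00.

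Wider lists of the same pathways were read for comparison, and their counts at unadjusted p under 0.05 stand against 6.39% of all genes in HSCs and 5.42% in macrophages. DESeq2 gave no adjusted p for 4 of the 115 listed genes tested in HSCs and for 10 of the 105 tested in macrophages. Markers of other cell types were read beside the lists in macrophages. All 17 macrophage markers had a log2 fold change below 0 with Cre (median -1.10), as had 9 of 11 hepatocyte markers (median -1.45) and 7 of 8 megakaryocyte markers (median -0.60), while 10 of 12 endothelial markers were above 0 (median 0.24). Of these lists 0 genes were called by edgeR or DESeq2 in macrophages, with 1, 2, 1 and 0 at unadjusted p under 0.05, and their part in the list medians below was not tested. The hepatocyte markers were high in 1 library. They summed to 0.409% of reads in Cre negative macrophage replicate 1 and to 0.0495 and 0.0520% in replicates 2 and 3. In Cre positive macrophages they summed to 0.0483 to 0.0792%. Of 20 erythroid transcription factors, all 20 were tested in HSCs, with 0 called by edgeR or DESeq2, 1 at unadjusted p under 0.05 and a median log2 fold change of 0.18. Ikzf1, which encodes the lymphoid factor Ikaros, was at 6.47, 18.3 and 24.3 CPM in Cre negative HSCs against 26.5, 55.5 and 75.9 CPM in the group labelled Cre positive (log2 fold change 1.69, SE 0.61, edgeR adjusted p = 0.736). Tal1, a GATA1 partner, was also wholly higher, at 8.61 to 16.7 against 18.0 to 34.9 CPM (edgeR adjusted p = 0.874). Spi1, the gene of the myeloid factor PU.1, overlapped, at 110.3 to 235 against 187 to 269 CPM. In macrophages 17 of the 20 were tested, with 0 called by edgeR or DESeq2, 0 at unadjusted p under 0.05 and a median of -0.45. E2f2, a cell cycle factor of late red cell precursors, was at 34.9 to 35.7 CPM without Cre and at 5.39 to 19.1 CPM with it (log2 fold change -1.70, SE 1.06, edgeR adjusted p = 1.00). Fli1 was wholly higher with Cre, at 273 to 378 against 201 to 228 CPM, and Spi1 overlapped at 18.0 to 53.9 against 6.43 to 123 CPM.

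Of the erythropoietin receptor pathway, 17 of 20 listed genes were tested in HSCs and 18 in macrophages, with 0 called by edgeR or DESeq2 in either. At unadjusted p under 0.05 the counts were 1 of 17 and 2 of 18, against 6.39% and 5.42% of all genes. The medians were -0.20 in HSCs and -0.67 in macrophages, the latter beside a median of -1.10 for the macrophage markers. In HSCs Pik3r1, the regulatory subunit of PI3 kinase, was wholly higher in libraries labelled Cre positive, at 168 to 257 against 74.7 to 155 CPM (log2 fold change 0.92, SE 0.33, edgeR adjusted p = 0.732). The adaptor Shc1 and the kinase Lyn overlapped there, with log2 fold changes of -0.58 and -0.40. In macrophages Bcl2l1, which encodes the survival protein BCL-XL, was wholly lower with Cre, at 20.9 to 70.5 against 77.7 to 126 CPM (log2 fold change -1.13, SE 0.56, edgeR adjusted p = 0.983). Lyn and the phosphatase gene Ptpn6 overlapped, with log2 fold changes of -0.85 and -1.30. Jak2, the kinase bound to the receptor, was at 105 to 171 CPM without Cre and 168 to 203 CPM with it.

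Heme synthesis had 13 listed genes, 13 tested in HSCs and 11 in macrophages. By edgeR 0 were called in either, with 0 and 1 at unadjusted p under 0.05, and DESeq2 called 0 and 1, the latter being Alas2. The medians were -0.05 in HSCs and -0.94 in macrophages, where 9 of 11 were below 0, as were all 17 macrophage markers. Fech, whose enzyme puts iron into heme, was at 113, 129 and 85.8 CPM in Cre negative HSCs against 122, 31.4 and 23.2 CPM in the group labelled Cre positive, low in replicates 2 and 3 as Klf1 was (log2 fold change -0.89, SE 0.60, edgeR adjusted p = 0.901). Urod and Uros, which act earlier in the pathway, overlapped in HSCs. In macrophages 4 of the 11 tested genes were wholly lower with Cre, Alas2 among them, and 0 wholly higher, against 11.8% and 2.27% of all genes. Slc25a38, a mitochondrial glycine carrier, was at 23.2 to 27.9 CPM without Cre and at 0, 14.9 and 0 CPM with it, Tmem14c at 37.4 to 41.7 against 5.02 to 29.1 CPM, and Urod at 26.4 to 59.1 against 4.18 to 26.4 CPM, with edgeR adjusted p-values of 1.00. The ubiquitous Alas1 overlapped, at 49.4 to 136 CPM without Cre and 40.3 to 87.4 CPM with it.

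All 22 listed iron genes were tested in both sorts, and 0 were called by edgeR or DESeq2, with 2 in HSCs and 3 in macrophages at unadjusted p under 0.05, against 6.39% and 5.42% of all genes. Slc48a1, a heme transporter, was wholly lower in both sorts, at 74.1 to 108 against 123 to 171 CPM in HSCs and at 31.7 to 56.5 against 59.6 to 128 CPM in macrophages (log2 fold changes -0.73, SE 0.25, and -1.27, SE 0.55, edgeR adjusted p = 0.689 and 0.792). Slc40a1, the iron exporter ferroportin, was at 260 to 391 CPM in HSC libraries labelled Cre positive and at 417 to 550 CPM in Cre negative ones (edgeR adjusted p = 0.738). Fth1, ferritin heavy chain, overlapped in HSCs with a log2 fold change of 0.36 and in macrophages with one of -1.01. Blvrb, a reductase of heme breakdown products, overlapped in macrophages, at 12.1, 132 and 119 CPM without Cre and 3.24, 9.67 and 38.5 CPM with it. Its log2 fold change was -2.35 (SE 0.94, edgeR adjusted p = 0.773), and without Cre positive replicate 3 it was -3.80 and passed the threshold (edgeR adjusted p = 0.0173).

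Red cell membrane genes and late enzymes had 0 called genes by edgeR or DESeq2 in either sort. Of 19 membrane genes tested in HSCs 1 had an unadjusted p under 0.05, and of 18 in macrophages 1 did. Add2, a subunit of the skeleton protein adducin, was wholly lower in HSC libraries labelled Cre positive, at 11.6, 0.499 and 0.669 CPM against 52.3, 39.3 and 25.9 CPM (log2 fold change -3.21, SE 1.23, edgeR adjusted p = 0.770). Ank1, the gene of the skeleton protein ankyrin, overlapped there. In macrophages the blood group genes Rhag and Kel were wholly lower with Cre, Rhag at 0 reads in all 3 libraries against 1.07 to 4.20 CPM and Kel at 0 to 1.86 against 2.32 to 24.6 CPM. The lowest Cre negative level of Rhag, 1.07 CPM, was under the 1.08 CPM that 3 reads make in Cre positive replicate 1. Of the late enzymes, 19 were tested in HSCs with 2 at unadjusted p under 0.05, and 15 in macrophages with 3, against 6.39% and 5.42% of all genes. Cat, the peroxide-degrading enzyme catalase, was wholly lower in both sorts, at 95.7 to 222 against 266 to 406 CPM in HSCs and 39.2 to 59.4 against 110.4 to 170.1 CPM in macrophages (log2 fold changes -0.85, SE 0.35, and -1.49, SE 0.46, edgeR adjusted p = 0.775 and 0.773). Gpx1, glutathione peroxidase, was wholly higher in HSC libraries labelled Cre positive, at 1248 to 1776 against 947 to 1090 CPM (edgeR adjusted p = 0.689), as was Bpgm, which makes the oxygen affinity regulator of red cells, at 58.7 to 87.8 against 42.4 to 49.2 CPM. In macrophages Alox15, a lipoxygenase of organelle clearance in reticulocytes, was at 2.31 to 4.62 CPM without Cre and 0 with it, and Trim10 at 2.61 to 13.8 against 0 to 0.372 CPM. Rhag, Alox15 and Trim10 passed the filter on low counts through the Cre negative group, which favoured a lower level with Cre.

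The globin list had 7 genes tested in HSCs and 6 in macrophages, with 0 called by edgeR or DESeq2 and 0 at unadjusted p under 0.05. Beside the genes given above it held Hbq1b, at 0 to 2.13 CPM in HSCs and 0 in macrophages, and Hba-x in macrophages at 0.463, 39.3 and 21.3 CPM without Cre and 0, 7.62 and 73.3 CPM with it.

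**Figure D4:**
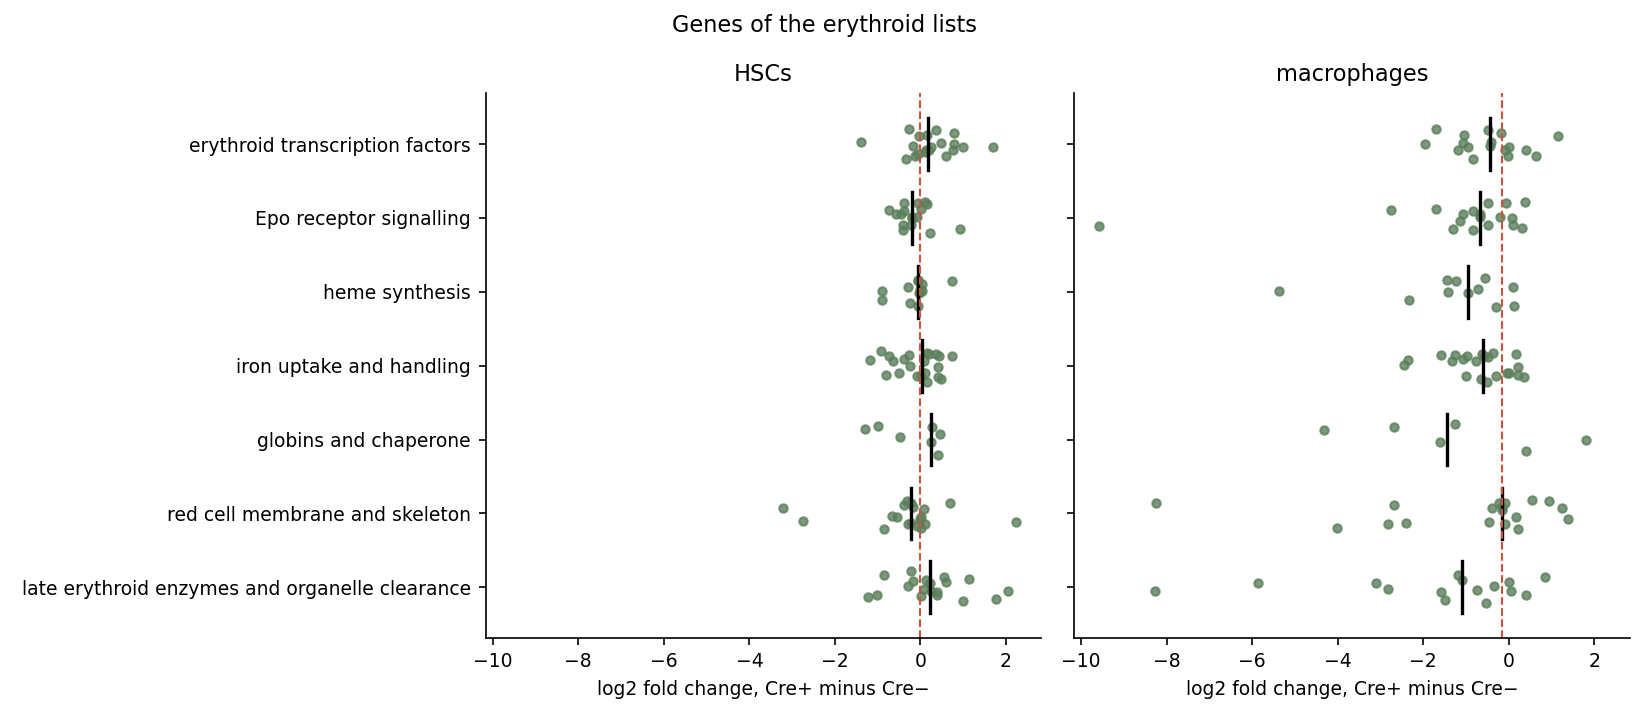
Log2 fold change, Cre positive minus Cre negative, of every tested gene of 7 lists in HSCs (left) and macrophages (right), 1 point per gene, with black lines at list medians and the dashed line at the median of all genes tested. List medians run from -0.22 to 0.24 in HSCs and from -1.43 to -0.16 in macrophages; the points farthest left are genes with 0 reads in the Cre positive libraries, whose fitted size depends on the prior count.

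Genes with the profile nearest to the globins were sought among those with a mean of at least 5 CPM, by the root mean square difference of centred log2(CPM + 1) over the 6 libraries of a sort. In HSCs the genes nearest to the summed adult globins of 11272 genes included Zkscan17, Arid5b, Mrnip and Cenpf, at 0.0759 to 0.128 log2 units, beside 0.470 for Epor and 2.16 for Hbb-y. The 5 nearest to Klf1 there were Slc5a6, Gins3, Nek3, Numbl and Eme1, at 0.167 to 0.261, which were all low in replicates 2 and 3 of the group labelled Cre positive. In macrophages the 5 nearest to the adult globins of 12432 genes were C5ar1, Cd300c2, Pomk, Lgals3 and Tyrobp, at 0.518 to 0.674, of which C5ar1, Cd300c2, Lgals3 and Tyrobp are genes of myeloid cells. Tyrobp was at 21.3, 239 and 162 CPM without Cre and at 2.88, 25.8 and 169 CPM with it, low and high in the same libraries as the globins. The 5 nearest to Klf1 in macrophages were Itgb5, Tlr13, Ptk2b, Zfp995 and Sdf2l1, at 0.414 to 0.498. With 6 libraries, such a nearness is a description.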

How the data were processed

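RNA was measured in 12 SMART-Seq v4 libraries, a kit that does not mark strand; the macrophage protocol gives 1 ng of RNA and 11 cycles of PCR, per the labels' protocols. The deposited tables hold raw counts of reads for each Ensembl gene. Per the submitters' processing notes, STAR 2.7.6a and featureCounts of Subread 2.0.1 were used with GRCm38 for HSCs, and mm10 is named for macrophages. Identifiers were named from a GENCODE annotation of GRCm38; 50 and 4855 of them had no name. Each table was tested alone with edgeR 4.0.16 (TMM, filterByExpr, robust quasi-likelihood fit, Benjamini-Hochberg adjustment, R 4.3.3); the interaction used 32210 shared identifiers. The SE given with an edgeR log2 fold change is an approximation, its absolute value divided by the square root of the test's F statistic. The test was checked on simulated counts. Alternatives were DESeq2 1.42.0, library totals, upper-quartile scaling, no filter, thinning, a replicate block and leaving out each library. Leaving out each library for the lower bounds was chosen after seeing the data. Single values had exact permutation tests (SciPy 1.17.1). Replicate numbers were not used to pair samples in the main fits. Deviations of same-numbered libraries correlated at -0.00103 to 0.0411 and those of differently numbered ones at -0.0351 to 0.0216. Such values cannot exclude that same-numbered samples were paired.

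The genes and lists were chosen with earlier results of these data known. Text names the 9 genes, up to 3 further genes per pathway list and sort with the smallest unadjusted p, the 5 nearest profiles and Jag1. Jak2, Alas1, Stab2, Siglec1, Adgre1, Alb, Car2, Slc4a1, Sptb and Hbb-bh1 were named after their values were seen. Ahsp had no matching name. Some genes that the rule selects are not reported here. Intervals and floors cover counting error only, since reads carried no molecular identifiers.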

Additional observations from a re-analysis of the deposited data

Results flagged for a closer look

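Epor differed between the sorts in its Cre effect by the interaction test, at -11.18 on the log2 scale (edgeR adjusted p = 0.0376), with 3 of 3 Cre positive macrophage libraries at 0 reads and overlapping HSC groups. Its adjusted p ranged from 0.000668 to 0.104 over the alternatives. The test shared a spread estimate between the sorts, and the macrophage fit alone gave Epor an edgeR adjusted p of 0.773. The part of red cell precursors, of macrophage marker content and of the shallower Cre positive macrophage libraries was not tested.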

How the results depend on the processing

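The count of called genes depended on the test. In HSCs DESeq2 called 133 genes where edgeR called 0, and every edgeR alternative also called 0. In macrophages edgeR called 0 genes, DESeq2 61, no filter 21 and the replicate block 13, and leaving out 1 library gave 1 to 34. Among the 9 genes DESeq2 called 1 in macrophages, Alas2 (log2 fold change -5.16). Blvrb passed in macrophages without Cre positive replicate 3 (-3.80). In the interaction, library totals called 0 of 9, the replicate block 3 (Epor, Hba-a1 and Hbb-bt), and leaving out 1 library gave 0 to 2. Under the replicate block some directions turned: Gata1 in HSCs -0.62, in macrophages Hba-x -0.998 and Hbb-bs -3.95, and in the interaction Hbb-bs -1.85 and Hbb-y 0.22. Leaving out 1 library gave log2 ranges across 0 of -1.07 to 0.79 for Gata1, -0.57 to 0.039 for Alas2 and -3.25 to 0.12 for Hba-x in HSCs. In macrophages the ranges were -2.46 to 1.28 for Hba-x and -9.26 to 2.86 for Hbb-bs. In the interaction they were -11.39 to 2.47 for Hbb-bs and -3.27 to 2.96 for Hbb-y. The difference in embryonic share ran from -27.1 to 42.1 points in macrophages and from -4.26 to -1.55 points in HSCs. The causes were not tested. Depth limits the Cre positive macrophages, where a level under 0.522 to 1.08 CPM cannot be told from 0.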
